A study of Mus musculus with 4 samples.

Results

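The clustered protocadherin genes of the mouse lie side by side on chromosome 18 as the alpha (Pcdha), beta (Pcdhb) and gamma (Pcdhg) clusters. All accessible sites on chromosome 18 that overlapped the body of a GENCODE gene whose symbol starts with Pcdha, Pcdhb or Pcdhg, or lay within 20 kb of one, were taken as members, which gave 25 of the 82325 sites in the table. Of these, 5 belonged to the alpha cluster, 3 to the beta cluster and 17 to the gamma cluster, each site being given to the cluster it lay in or closest to, and 18 overlapped a gene body. The rule used position alone, among sites already listed as peaks, and was set with earlier results of these data known. The farthest member from a gene body lay 19.0 kb away and had normalized counts of 8 and 16 in HAT1+/+ replicates 1 and 2, and 17 and 20 in HAT1-/- replicates 1 and 2. The nearest site left out lay 30.5 kb from a gene body, at 37218156 to 37218502 between the alpha and beta clusters, and in the same order its counts were 27, 36, 10 and 26.

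Clustered protocadherins are cadherin-like membrane proteins through which neurons recognise themselves and their neighbours. In the alpha and gamma clusters each variable first exon has its own promoter and is spliced to constant exons that the whole cluster shares, whereas a beta gene is essentially a single coding exon. A neuron switches on only a few of the alternate promoters, and this choice depends on CTCF and cohesin, which join promoters to distant enhancers, and on DNA methylation and H3 K9 methylation, which keep the other promoters silent. The C-type genes (Pcdhac1, Pcdhac2, Pcdhgc3, Pcdhgc4 and Pcdhgc5) stand at the ends of the alpha and gamma clusters and are used more evenly, outside the choice among alternate promoters.

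The sites come from ATAC-Seq, an assay that marks open DNA by where Tn5 transposase can cut it, on immortalized mouse embryonic fibroblasts (imMEFs) of C57bl6 background. HAT1 acetylates newly made histone H4, and the comparison asks how accessibility differs without it. There were 4 libraries, 2 from HAT1+/+ lines (WT) and 2 from HAT1-/- lines (KO), all of them derived from mid-gestation embryos and all carrying SV40 T antigen. Each library came from a different line, and the KO lines came from embryos that lacked HAT1 throughout. A p-value here sets a difference only against the spread between 2 lines per genotype. For single sites the estimate of that spread also draws on all sites of the table. A culture contains many cells, so fewer cells with an open site and less opening in every cell cannot be told apart.

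Values were normalized counts, the reads of a site divided by a factor per library. Their totals lay between 8008069 and 8516263, but the reads behind them were estimated at 9430000 and 11400000 for the WT libraries and at 7830000 and 5680000 for the KO libraries, so counting error was larger in KO. The promoter site of Hat1 had 390 and 384 normalized counts in WT and 438 and 368 in KO, which gives no check on the genotype because a disrupted gene can keep an accessible start. All 10 fibroblast marker genes examined had a promoter site, with means from 78.75 to 866.25. Rbfox3 and Snap25 of 5 neuronal markers and Ptprc and Spi1 of 3 blood markers had none. The other blood marker, Cd68, had 195 and 157 normalized counts in WT and 215 and 152 in KO (mean 179.75). Of the remaining neuronal markers, Tubb3 had 172 and 166 normalized counts in WT and 181 and 167 in KO, Syn1 had 106 and 74 against 82 and 98, and Syt1 had 150 and 110 against 24 and 80. A promoter site was also listed for 2 of 4 epithelial and 3 of 3 endothelial markers, and the part of other cell types in the values below was not tested.

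Most protocadherin promoters had no listed site in these fibroblasts. A site within 500 bases of the start was listed for 11 of 58 gene entries (18.97%), against 12174 of 21938 protein-coding genes of the whole annotation (55.49%). The alpha cluster had such a site at 1 of 14 entries, Pcdhac2, the beta cluster at 2 of 22, Pcdhb15 and Pcdhb22, and the gamma cluster at 8 of 22 (36.36%). By promoter class, 4 of 5 C-type promoters and 7 of 53 alternate promoters (13.21%) had a site. Pcdhac1 was the C-type gene without one. A promoter with no listed site is one where no peak entered the table, not one shown to be closed.

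The clusters were unequally covered. The alpha cluster (36930184 to 37187661 in mm10) spanned 257.5 kb with 15.54 sites per Mb, and from its start 213.2 kb passed before the first site, at Pcdhac2, so that all 12 entries of alternate alpha genes and Pcdhac1 lay in a stretch without any listed site. The beta cluster (37264938 to 37524479) spanned 259.5 kb with 11.56 sites per Mb. Its first 185.0 kb held none, and 260.6 kb separated the last alpha site from the first beta site. The gamma cluster (37661793 to 37841873) was the shortest, at 180.1 kb, and had 61.08 sites per Mb.

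**Figure D1:**
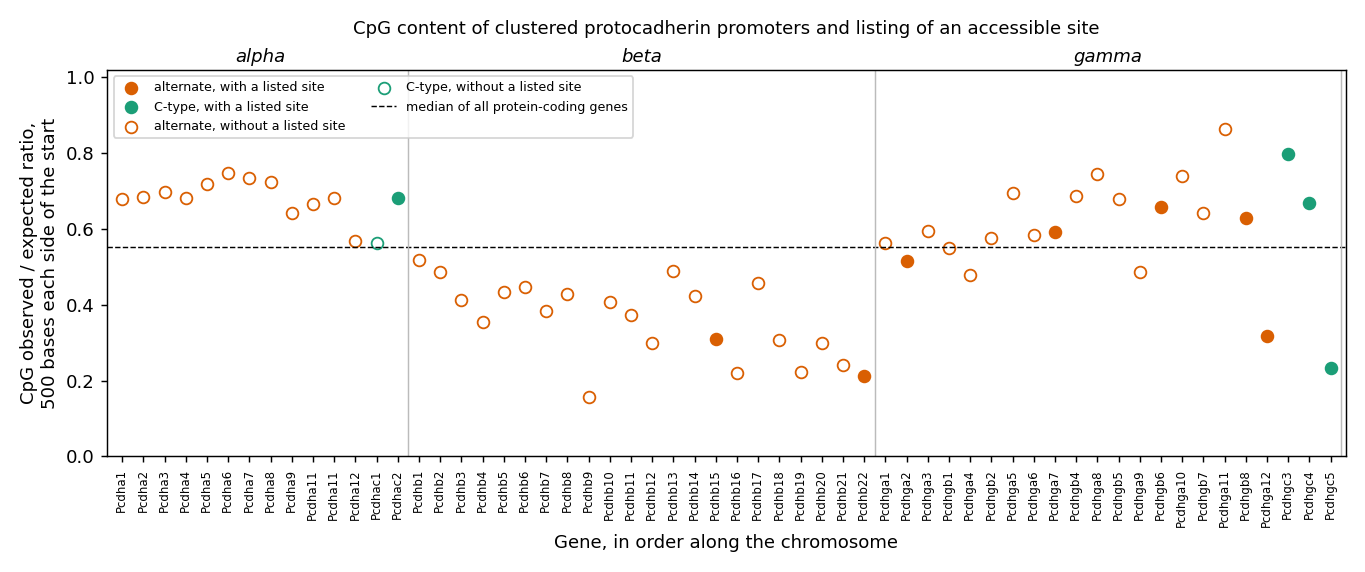
Each point is the promoter of a clustered protocadherin gene entry, in order along the chromosome (x axis), and the y axis is the ratio of observed to expected CpG dinucleotides in 500 bases on each side of the start. Filled points are the 11 promoters with a listed accessible site and open points the 47 without, in orange for alternate and green for C-type genes, and the dashed line is the median of all protein-coding genes (0.552). Listed promoters range from 0.212 to 0.797, and the CpG-rich alpha promoters are open points apart from Pcdhac2.

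CpG content overlapped between promoters with a site and those without. The observed over expected CpG ratio had a median of 0.592 over the 11 promoters with a site and 0.564 over the 47 without, and 0.552 over all protein-coding genes. The alpha promoters were CpG-rich and alike (0.564 to 0.749, median 0.682), the gamma promoters similar but more varied (median 0.611), and the beta promoters poor (median 0.378). Among listed promoters the ratio reached from 0.212 at Pcdhb22 to 0.797 at Pcdhgc3. These windows were centred on the start of the gene entry, and the Pcdhb22 site itself had a ratio of 0.409. GC content was lower than usual, with a median of 44.86% against 54.75% for all protein-coding genes.

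A shared letter motif was likewise present with and without a site. The 4 letters CGCT are the core of a conserved element of many of these promoters. These letters alone, not the whole element, were searched on both strands. The search ran from 250 bases before to 50 bases after the start of each gene entry. The letters occurred in 56 of 58 promoters (96.55%), against 67.12% of 21931 protein-coding promoters of the same length. The exceptions were Pcdhb22 and Pcdhga12, both with a listed site. Their sites began 343 and 192 bases past the start searched, outside the window. Each covered another annotated start of its gene, around which the letters were not searched. The letters CCCTC, after which CTCF is named and which do not overlap the first motif, were searched in the same way. They occurred in 15 of 58 (25.86%), against 68.2% of all. GC content was lower around these starts (median 44.86% against 54.75%), and its part in these counts was not tested. A match of so few letters describes the window and is not a binding site.

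Similar copies of a promoter limit what short reads can place. In the alpha cluster a median of 84.98% of the 50-base words within 500 bases of the start occurred once in the genome, and 10 of 14 promoters were below 90%. Only 1 beta and 2 gamma promoters were below that value. All 13 promoters below 90% lacked a listed site, but so did 47 of all 58 promoters, and 10 of the 13 were alpha promoters. How the authors treated reads with several matches is not given in the sources used here. The part of repeated sequence in the missing sites was not tested. The 25 member sites themselves were between 95.51% and 100% unique.

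**Figure D2:**
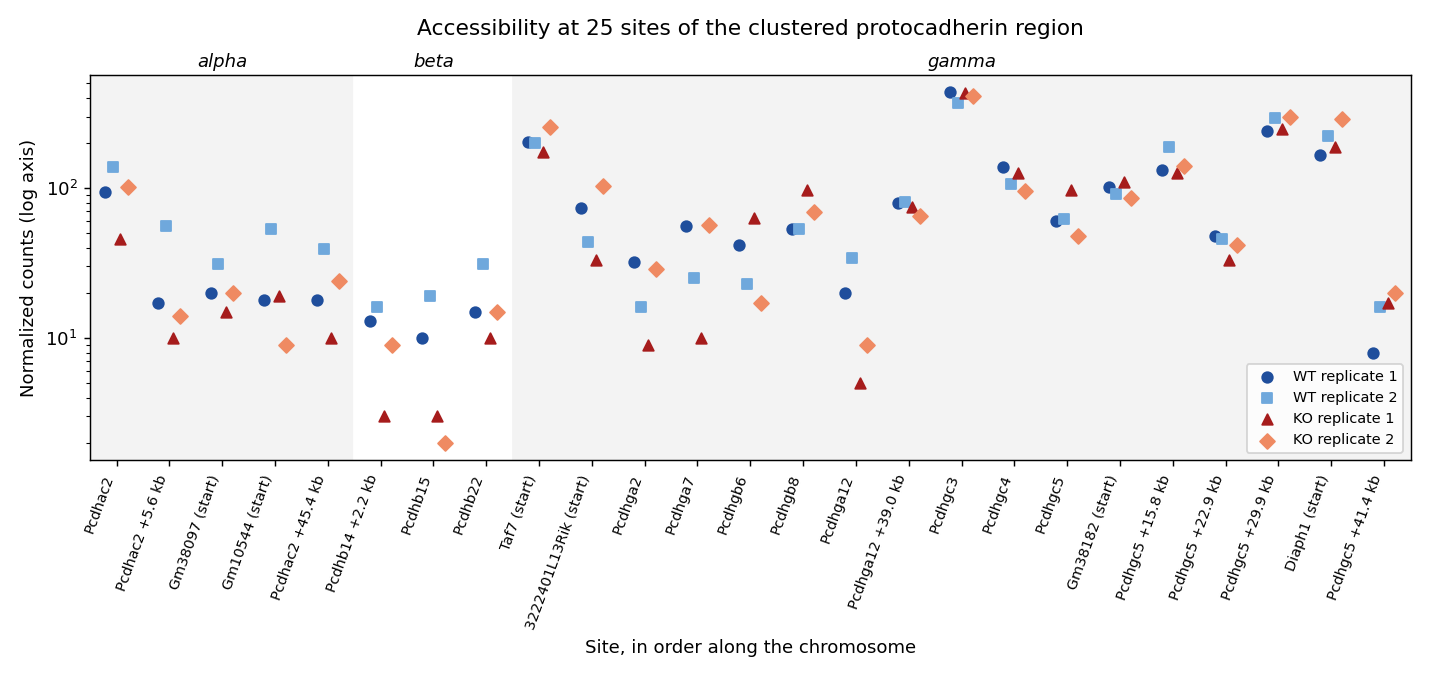
Normalized counts (log axis) of each of the 25 sites in order along the chromosome, with 1 point per library: blue circles and light blue squares for WT replicates 1 and 2, dark red triangles and orange diamonds for KO replicates 1 and 2. Sites without a gene start are named by their distance from the nearest upstream protocadherin start. The points of Pcdhgc3 lie together near the top (371 to 435), and those of Pcdhb15 spread from 2 to 19.

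Accessibility was led by the 3' end of the gamma cluster and by neighbouring genes. Per kb of site, the mean over the 4 libraries had a median of 53.92 normalized counts in alpha, 47.59 in beta and 120.57 in gamma, where the median of all sites was 118.58. The highest protocadherin promoter per kb was Pcdhgc3 with 331.12, followed by Pcdhgc5 (135.67), Pcdhgc4 (133.91) and Pcdhgb8 (120.57). The lowest was Pcdhb15 with 33.20. The gap between Pcdhgc3 and all other promoters was wide, while Pcdhgc5 and Pcdhgc4 were within the spread of their libraries.

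Across the 25 sites no difference between genotypes passed the threshold used here, which was taken from the analysis of primary MEFs with another test. With limma on log2(normalized counts + 1), 0 of 25 members were called at an unadjusted p under 0.01 with an absolute log2 difference of at least 1, where 0.373% of all sites were. At an unadjusted p under 0.05, 1 of 25 members passed, against 3.13% of all sites. After Benjamini-Hochberg adjustment in limma no member and 0% of all sites passed, and the adjusted p of the members was 1. Both KO libraries were below both WT libraries at 6 members (24%), against 14.3% of all sites, and above them at 2, against 14.6%. At the other 17 the genotypes overlapped.

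The sign of the difference was uneven between the clusters. The log2 difference, KO minus WT, was below 0 at 15 of 25 members (60%), where 49.3% of all sites were below 0, and it was -0.58 or lower at 9 members, where 11.9% of all sites were. It was below 0 at 5 of 5 alpha sites, 3 of 3 beta sites and 7 of 17 gamma sites. The median was -0.74 in alpha, -1.29 in beta and 0.03 in gamma, and -0.25 over all members, beside 0.0062 over all sites of the table and -0.0292 over the 2791 sites of chromosome 18. Sites of a cluster share their libraries and lie close together, so these counts are a description and not independent events.

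The negative values lay mostly at weak sites. Of the 13 members with a mean below the median of all sites (52 normalized counts), 11 were below 0, with a median of -0.73, whereas weak sites in the whole table were below 0 in 57.94% of cases with a median of -0.0975. Of the 12 stronger members, 4 were below 0 and the median was 0.04. All 3 beta sites and 4 of 5 alpha sites were among the weak ones. The part of read depth, which was lower in both KO libraries, in the values of weak sites was not tested. A site had to be called as a peak to be listed. Which library's peak listed each weak site was not examined, and its part in these signs was not tested.

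**Figure D3:**
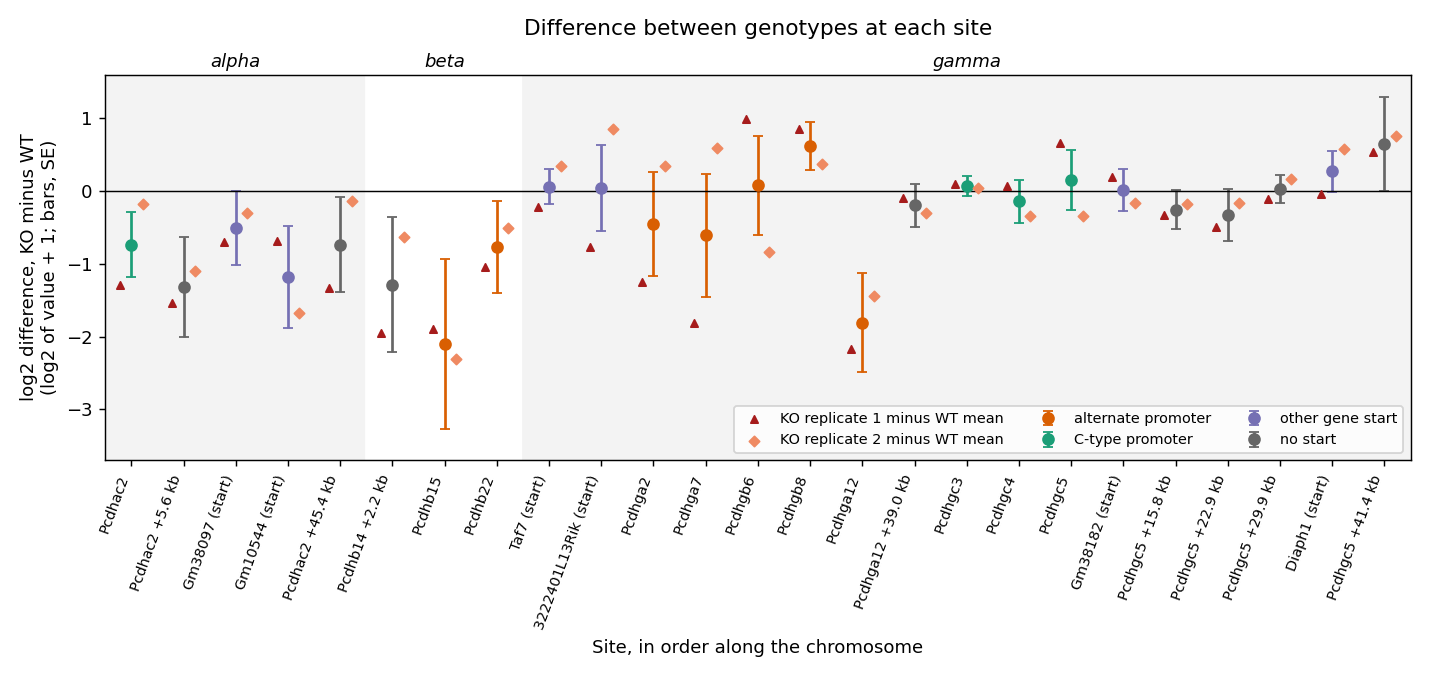
The log2 difference, KO minus WT, of log2(normalized counts + 1) at each of the 25 sites in order along the chromosome. Large points with bars are the estimate and its SE from limma, colored by class of site, and small symbols are each KO library alone minus the WT mean. All 8 alpha and beta sites are below 0, Pcdhb15 lowest at -2.10, and the 2 KO libraries fall on opposite sides of 0 at Pcdhga2, Pcdhga7 and Pcdhgb6.

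In the alpha cluster the promoter of Pcdhac2, a C-type gene, was the strongest site. This site, at 37143398 to 37144475 over the first exon, had normalized counts of 94 and 139 in WT and 46 and 101 in KO. KO replicate 1 was the lowest, but KO replicate 2 lay between the WT libraries. The log2 difference was -0.74 (SE 0.45, limma unadjusted p = 0.148), and it was -0.18 without KO replicate 1 and -1.30 without KO replicate 2.

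Past Pcdhac2, 4 weaker sites followed. The first, 5.6 kb after the Pcdhac2 start and before the constant exons (37149078 to 37149664), had counts of 17 and 56 in WT and 10 and 14 in KO. It was the only alpha site where both KO libraries were below both WT libraries, with a log2 difference of -1.32 (SE 0.69, limma unadjusted p = 0.102), but WT replicate 2 alone was high, and the difference was -0.49 without it.

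A pair of sites lay in the intron between the last alpha constant exons (37159265 to 37159353 and 37184946 to 37187657), at the starts of the predicted genes Gm38097 and Gm10544. At the Gm38097 start (37172292 to 37172636) counts were 20 and 31 in WT and 15 and 20 in KO. At the Gm10544 start (37178269 to 37178727) they were 18 and 53 in WT and 19 and 9 in KO. The genotypes overlapped or met at both, with log2 differences of -0.50 (SE 0.51) and -1.18 (SE 0.70).

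The last alpha site lay past the final constant exon, 45.4 kb after the Pcdhac2 start (37188885 to 37189313), in introns of the predicted genes Gm37013, Gm37388 and Gm42416. It had 18 and 39 normalized counts in WT and 10 and 24 in KO, with KO replicate 2 between the WT libraries. The log2 difference was -0.73 (SE 0.65). Without WT replicate 2 the Gm38097 start was at -0.20, the Gm10544 start at -0.43 and this site at -0.20.

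All 3 beta sites were weak, with means over the libraries from 8.5 to 17.75 normalized counts. At Pcdhb15 (37473369 to 37473624, at the gene start) counts were 10 and 19 in WT and 3 and 2 in KO, which corresponds to about 11.8 and 26.6 reads in WT and 2.8 and 1.3 in KO. Both KO libraries were below both WT libraries, and the log2 difference of -2.10 was the most negative of the region, with an SE of 1.16 and a limma unadjusted p of 0.120. This site, Pcdhb22 and Pcdhga12 had means under 20 and fell outside the rule for naming promoters, so they were singled out after their values were seen.

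Within the transcribed part of Pcdhb14, 2.2 kb after its start (37449901 to 37450105), counts were 13 and 16 in WT and 3 and 9 in KO, again without overlap. The log2 difference was -1.29 (SE 0.93) and became -0.63 without KO replicate 1. At Pcdhb22, where the site (37518214 to 37518586) overlapped exons of both Pcdhb21 and Pcdhb22, counts were 15 and 31 in WT and 10 and 15 in KO. Here WT replicate 1 and KO replicate 2 had the same value, and the log2 difference was -0.77 (SE 0.63).

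At all 5 alpha and all 3 beta sites WT replicate 2 was the highest library, and KO replicate 1 was the lowest at 4 of the 5 and 2 of the 3. Mean log2(normalized counts + 1) over the alpha sites was 4.73 and 5.81 in the WT libraries and 4.16 and 4.59 in the KO libraries. The difference of -0.89 between genotype means compares with 1.08 between the WT libraries. Without WT replicate 2 it was -0.35, and without WT replicate 1 it was -1.43.

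Over the beta sites the means were 3.76 and 4.47 in WT and 2.49 and 2.97 in KO, a difference of -1.39, against 0.71 between the WT libraries. Leaving out single libraries gave -1.03 (without WT replicate 2) to -1.74 (without WT replicate 1). Both the alpha and the beta means were lower in each KO library than in each WT library, for which the exact two-sided permutation test gives p = 0.333. That is the smallest p that 2 libraries against 2 can give. The means over all sites of the table lay in the same order, 5.88 and 5.90 in WT and 5.81 and 5.87 in KO. Their difference was -0.05.

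**Figure D4:**
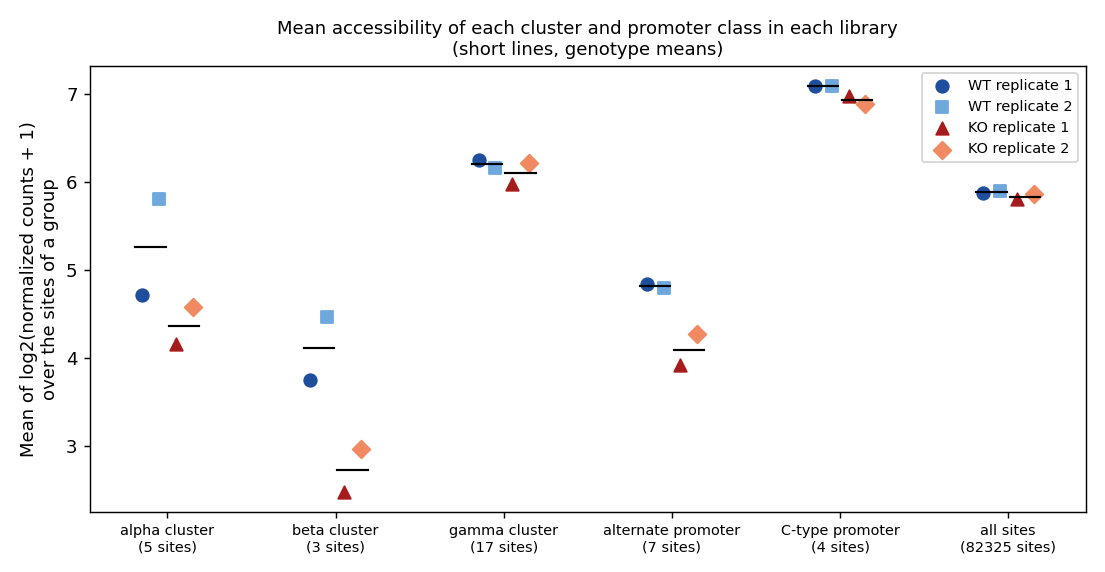
Mean of log2(normalized counts + 1) over the sites of each cluster, of each promoter class and of the whole table (x axis, with the number of sites), 1 point per library, and short lines for the mean of each genotype. In alpha and beta both KO points are below both WT points, with WT replicate 2 highest (5.81 and 4.47), while in gamma the points lie between 5.98 and 6.26 and overlap.

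The gamma cluster as a whole had near-equal means, 6.26 and 6.16 in WT and 5.98 and 6.23 in KO. The difference was -0.10 (exact two-sided permutation p = 0.667), and 0.02 without KO replicate 1, -0.06 without WT replicate 1, -0.15 without WT replicate 2 and -0.23 without KO replicate 2. Within it, the 5 alternate promoters had a difference of -0.43 (p = 0.667 by the same exact permutation test), the 3 C-type promoters 0.03 and the 9 other sites 0.03 (both p = 1 by the exact permutation test). Over the 11 gamma sites overlapping a gene body the means were 6.213 and 5.9969 in WT and 5.8523 and 5.9009 in KO. There both KO libraries were below both WT libraries, as in alpha and beta. The difference was -0.2284 (exact two-sided permutation p = 0.333, the smallest possible), and WT replicate 2 minus WT replicate 1 was -0.2161. This restriction was added after seeing the data.

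Of the gamma alternate promoters, Pcdhga12 was the member with an unadjusted p under 0.05. Its site (37765772 to 37766064) had counts of 20 and 34 in WT and 5 and 9 in KO, or about 23.5 and 47.6 reads against 4.6 and 6.0. Both KO libraries were below both WT libraries, with a log2 difference of -1.81 (SE 0.68, limma unadjusted p = 0.0367, adjusted p = 1). It is the last alternate gene of the cluster.

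At Pcdhgb8, annotated as a polymorphic pseudogene, the site (37761347 to 37761910) had 53 and 53 normalized counts in WT and 97 and 69 in KO. This was the only promoter of the region where both KO libraries were above both WT libraries. The log2 difference was 0.62 (SE 0.33, limma unadjusted p = 0.107). Pcdhgb8 and Pcdhga12 are adjacent genes, and their differences had opposite signs.

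At 3 alternate promoters the lines differed more within a genotype than between genotypes. Counts at Pcdhga2 (37668882 to 37669095) were 32 and 16 in WT and 9 and 29 in KO. At Pcdhga7 (37714682 to 37715172) they were 56 and 25 in WT and 10 and 57 in KO. In both, WT replicate 1 and KO replicate 2 were high and WT replicate 2 and KO replicate 1 low. The line names of WT replicate 1 and KO replicate 2 carry the same number in the labels, which do not say what it marks, and its part in these values was not tested.

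Pcdhgb6 (37741917 to 37742331) had 42 and 23 in WT and 63 and 17 in KO, so that KO replicate 1, the lowest library at Pcdhga2 and Pcdhga7, was the highest there. The KO lines differed by 1.58 at Pcdhga2, 2.40 at Pcdhga7 and -1.83 at Pcdhgb6 (log2, replicate 2 minus replicate 1). The log2 differences between genotypes were -0.45 (SE 0.71), -0.61 (SE 0.84) and 0.08 (SE 0.68). Leaving out a KO library moved them to 0.34 or -1.24, to 0.59 or -1.81 and to -0.84 or 0.99.

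Over the 7 alternate promoters with a site, the median absolute difference between the WT libraries was 0.86 and that between the KO libraries 0.74. Over all sites the same medians were 0.34 and 0.43, over all sites with a mean below the median 0.47 and 0.61, and over 11665 promoter sites of protein-coding genes 0.16 and 0.21. The alternate promoters had a median mean of 21.5 normalized counts, and the part of counting error at so few reads in their spread was not tested. Their mean log2 level was 4.84 and 4.80 in WT and 3.92 and 4.28 in KO (difference -0.72, exact two-sided permutation p = 0.333, the smallest possible).

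**Figure D5:**
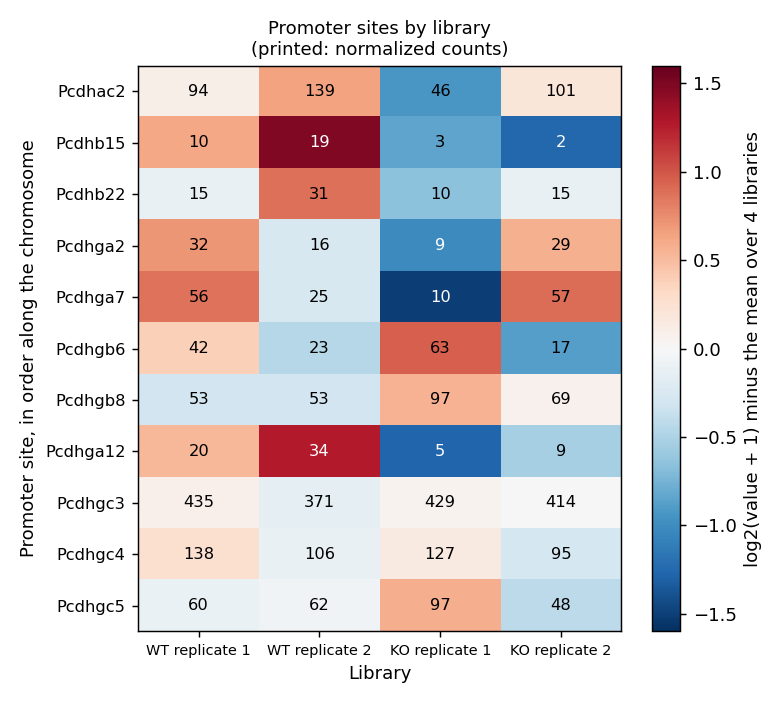
The 11 protocadherin promoter sites (y axis, in order along the chromosome) in the 4 libraries (x axis). Printed numbers are normalized counts and color is log2(normalized counts + 1) minus the mean of the site over the 4 libraries, red above and blue below. Pcdhga2 and Pcdhga7 are red in WT replicate 1 and KO replicate 2, Pcdhb15 and Pcdhga12 are red in both WT libraries, and Pcdhgc3 is nearly white throughout.

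Of the gamma C-type promoters, Pcdhgc3 and Pcdhgc4 had the higher counts. At Pcdhgc3 (37806011 to 37807255) counts were 435 and 371 in WT and 429 and 414 in KO, and at Pcdhgc4 (37814631 to 37815500) they were 138 and 106 in WT and 127 and 95 in KO. The genotypes overlapped at both. The log2 differences were 0.07 (SE 0.14) and -0.14 (SE 0.29), and the first turned to -0.0646 under quantile normalization.

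At Pcdhgc5 (37819238 to 37819729) counts were 60 and 62 in WT and 97 and 48 in KO. The KO lines lay on either side of the WT pair, and the log2 difference was 0.16 (SE 0.41), with 0.66 for KO replicate 1 alone and -0.34 for KO replicate 2 alone. Over all 4 C-type promoters with a site the median log2 difference was -0.03, against -0.61 over the 7 alternate promoters. Over all 11 promoters it was -0.45, beside 0.0273 over all promoter sites of protein-coding genes, but it was 0.03 without WT replicate 1, -0.34 without WT replicate 2 or KO replicate 1 and -1.04 without KO replicate 2.

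Further gamma sites lay between the promoters and around the constant exons. A site 39.0 kb after the start of Pcdhga12 and upstream of Pcdhgc3 (37804591 to 37804938) had 79 and 81 normalized counts in WT and 75 and 65 in KO. The genotypes did not overlap, but the log2 difference was small (-0.19, SE 0.29). The start of Gm38182, a predicted gene, coincided with the first gamma constant exon (site at 37824914 to 37825682) and had 102 and 91 in WT and 110 and 86 in KO.

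In the intron before the last constant exon, 15.8 kb after the Pcdhgc5 start (37835353 to 37836873), counts were 133 and 189 in WT and 126 and 140 in KO. The log2 difference was -0.25 (SE 0.27). Just past the cluster, at 37842427 to 37843001, they were 48 and 46 in WT and 33 and 42 in KO, again with both KO libraries lowest (-0.33, SE 0.35).

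Genes of other families at the edges of the gamma cluster overlapped between genotypes. The start of Taf7, which encodes a subunit of the general transcription factor TFIID and stands between the beta and gamma clusters (37643946 to 37644533), had 204 and 199 in WT and 173 and 256 in KO. Per kb it was the most accessible member, at 353.74. At 3222401L13Rik (37655498 to 37656059), next to it, counts were 74 and 44 in WT and 33 and 104 in KO. The log2 differences were 0.06 (SE 0.24) and 0.04 (SE 0.59), and both turned below 0 with equal library totals (-0.0056 and -0.0268).

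Beyond the gamma cluster lay Diaph1, which encodes a formin that assembles actin filaments. The start of one of its internal transcripts (37852099 to 37852907) had 167 and 224 in WT and 189 and 289 in KO, with a log2 difference of 0.27 (SE 0.28). A strong intronic site (37849365 to 37850176) had 239 and 292 in WT and 246 and 296 in KO (0.03, SE 0.19). The farthest site (37860865 to 37861068), whose counts are given above, was the other member with both KO libraries above both WT libraries (0.65, SE 0.64).

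The region was then set against a rule for domains of lower accessibility that was designed for primary MEFs. It requires a mean log2 difference under -0.58 over 25 consecutive sites. Windows centred on the 25 members had means from -0.49 to -0.03, and none was under -0.58, where 32 of 2767 windows of chromosome 18 were. With KO replicate 1 alone against the WT mean, 11 of 25 windows passed, the lowest at -0.65, where 190 of 2767 windows of the chromosome did. With KO replicate 2 alone none of the 25 did, the lowest being -0.33, where 12 of 2767 did. The windows overlap and reach past the clusters, and the number that passed rested on which KO line was used.

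Genes that act on the clusters, and signalling partners of their proteins, had listed promoter sites. All 27 genes examined had a promoter site: 11 loop and boundary factors, 9 silencing factors and 7 signalling partners of protocadherin proteins. Means over the 4 libraries ran from 48.75 at Ptk2b to 814 at Stag1. None of the 27 was called, beside 0.373% of all sites and 33 of 11665 promoter sites of protein-coding genes. The median log2 differences were 0.15, 0.07 and -0.02. A limma unadjusted p under 0.05 was found for 2 of the 27, both cohesin subunits. Of all sites 3.13% were under 0.05, and of the promoter sites of protein-coding genes 486 of 11665 were.

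Smc3 had 510 and 446 normalized counts in WT and 693 and 630 in KO (log2 difference 0.47, SE 0.12, limma unadjusted p = 0.00646). Smc3 lies on chromosome 19, whose 2573 sites had a median log2 difference of 0.23, with 0.47 for KO replicate 1 alone and -0.03 for KO replicate 2 alone. Stag1 on chromosome 9 had 745 and 724 in WT and 888 and 899 in KO (0.28, SE 0.07, limma unadjusted p = 0.00832), where the chromosome's median was -0.04. Ctcf, whose protein binds protocadherin promoters, and the silencing factors Setdb1, Smchd1 and Dnmt3b were among the genes with an unadjusted p above 0.05.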

How the data were processed

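ATAC-Seq was performed on 4 imMEF libraries, 2 HAT1+/+ and 2 HAT1-/-, numbered within genotype by accession. Per the study's methods and the submitters' processing notes, read pairs were placed on mm10 by the authors using BWA 0.7.12, with MACS2 2.1.0 for peaks and DESeq2 for testing. The deposited values are a score: counts per site that the authors divided by a factor per library and rounded to whole numbers. Read filtering, the handling of multiple matches and the Tn5 offset are not given in the sources used here. The same table holds log2 fold changes, shrunken log2 fold changes, p-values and adjusted p-values of the authors' comparison, which were not used.

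Members and gene lists were chosen with earlier results of these data known. All 82325 sites were fitted with limma 3.58.1 (R 4.3.3, intensity trend, two-sided) on log2(value + 1), on which scale differences of weak sites are understated, without a filter on low values. Calling required p under 0.01 before adjustment together with an absolute log2 difference of 1 or more. The script was tested on simulated data. Cluster means were compared by exact permutation of 4 libraries. Library factors, and from them approximate reads in sites, were estimated from the spacing of whole numbers among low values. The reads therefore carry counting error, rounding error and the error of the estimated factor. It is unknown whether fragments or reads were counted. Gene models were GENCODE on GRCm38, and promoters reached 500 bases to each side of a start. Sequence features were computed from the genome with Python 3.11.15, and no sequence is printed. The rule for sites named with values in every library took the 8 highest promoters, the 3 lowest and 3 highest differences among promoters with a mean of at least 20, C-type promoters, the 3 highest other sites per cluster and starts of other genes. The other members, namely Pcdhb15, Pcdhb22, Pcdhga12, the site upstream of Pcdhgc3 and the sites 15.8, 22.9 and 41.4 kb after the Pcdhgc5 start, fell outside it and were added after their values were seen. Alternatives were a pseudocount of 8, equal totals, quantile normalization, a filter at the median signal, other windows and thresholds, and each library left out. Restriction of cluster means to gene bodies, the set without starts of other genes and the count of alpha and beta sites below 0 were added after seeing the data.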

Additional observations from a re-analysis of the deposited data

How the results depend on the processing

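No member was called under any threshold with a fold limit, scaling, filter or left-out library, and 1 passed at an unadjusted p under 0.05 without a fold limit. The 8 alpha and beta sites stayed below 0 with another pseudocount, scaling or library left out, and 1 of them remained under the filter that keeps sites at or above the median signal, because the others are weaker. Under that filter the median over members was 0.0355, the median over promoters 0.0689 and the gamma mean difference 0.0619, and no beta value could be given. For sites in gene bodies the median over members was -0.4758 and the gamma mean difference -0.2284. The promoter median was -0.305 with a pseudocount of 8 and -0.187 under quantile normalization. With single libraries left out, the median over members ran from -0.4972 to -0.1134, the promoter median from -1.0406 to 0.0269, the alpha mean difference from -1.4345 to -0.3523, the beta one from -1.7421 to -1.0279 and the gamma one from -0.2272 to 0.0176. The remaining causes of these shifts were not tested.

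Of 64 values of the 18 named sites with all libraries kept, 8 changed direction, all within 0.1 of 0. With equal totals these were Taf7 (-0.0056), 3222401L13Rik (-0.0268), Gm38182 (-0.0541) and the Diaph1 intron site 29.9 kb after the Pcdhgc5 start (-0.0377). Under quantile normalization they were Taf7 (-0.0229), Pcdhgc3 (-0.0646), Gm38182 (-0.0227) and the same Diaph1 intron site (-0.0661). With a library left out, 17 of 72 changed direction, at 11 sites. The ranges were -0.2187 to 0.344 at Taf7, -0.7729 to 0.8539 at 3222401L13Rik, -1.244 to 0.341 at Pcdhga2, -1.8072 to 0.5913 at Pcdhga7, -0.8357 to 0.9944 at Pcdhgb6, -0.0456 to 0.1834 at Pcdhgc3, -0.3452 to 0.0698 at Pcdhgc4, -0.3393 to 0.6607 at Pcdhgc5, -0.1621 to 0.1894 at Gm38182, -0.1134 to 0.1745 at the Diaph1 intron site and -0.0332 to 0.5769 at the Diaph1 start. With 1 library left in a genotype, limma assumes that it varies like the other genotype. No paired analysis was possible because replicate numbers follow accession order and only 1 line of each genotype, WT replicate 1 and KO replicate 2, shares a number in its name. Depth limits weak sites: at the beta sites and Pcdhga12 a KO library had about 1.3 to 10.0 reads.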
